A study of Homo sapiens with 4 samples.

Results

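The genes described here are 10 that encode fibronectin and other large glycoproteins of the extracellular matrix: FN1, TNC, THBS1, THBS2, POSTN, SPARC, FBN1, FBN2, VCAN and VIT. They were given by name as a gene family, with earlier results of these data known, and all 10 were found among the 20024 genes of the count table. The cells were SJSA-1, a human osteosarcoma line in long use, with 2 libraries labelled control and 2 labelled ZNF217 knockdown. ZNF217 is a zinc finger transcription factor, and the series addresses its part in AKT signalling, tumour growth and metastasis. The sources used here give neither dose, time and culture conditions nor the knockdown reagent and what the controls received. The labels do not state whether replicates were grown separately, so the p-values measure the spread between these libraries, which may be technical.

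Matrix glycoproteins are secreted, and they assemble outside the cell into fibres and networks that cells grip through integrins and other receptors. Fibronectin forms fibrils that serve as a scaffold for other matrix proteins, and fibrillins form the microfibrils of elastic tissue. Tenascin-C, the thrombospondins, periostin and SPARC are called matricellular proteins because they tune adhesion and growth factor access more than they bear load. In bone, SPARC is known as osteonectin, an abundant non-collagen protein of the mineralised matrix, and tumour matrix is commonly rich in fibronectin and tenascin-C.

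The start regions of 4 of these genes are printed because they carry the widest contrasts below: FN1 and VIT had the largest differences between the groups, in opposite directions, and THBS1 and THBS2 are paralogs whose levels diverged in a single control library. Each line holds 250 bases before and 50 bases after the RefSeq start of the gene, 5′ to 3′ on the gene's strand, from GRCh38.p14. Capitals mark matches, on either strand, to 7 motifs. These were the TATA box as TATAAA, the TEAD core as GGAATG, the AP-1 site as TGANTCA, the GC box as GGGCGG, the E-box-like word CAGATG, and the words CAGAAT (of the kind that ZNF217 binds) and, of the same kind, CAGAAC.
FN1, chr2:215436019-215436318, minus strand: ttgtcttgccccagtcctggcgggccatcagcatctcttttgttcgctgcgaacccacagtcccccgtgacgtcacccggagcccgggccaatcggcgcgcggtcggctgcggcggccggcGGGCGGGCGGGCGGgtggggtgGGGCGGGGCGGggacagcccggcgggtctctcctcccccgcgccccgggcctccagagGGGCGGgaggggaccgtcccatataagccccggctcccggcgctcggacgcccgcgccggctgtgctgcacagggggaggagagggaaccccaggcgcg
VIT, chr2:36696457-36696756, plus strand: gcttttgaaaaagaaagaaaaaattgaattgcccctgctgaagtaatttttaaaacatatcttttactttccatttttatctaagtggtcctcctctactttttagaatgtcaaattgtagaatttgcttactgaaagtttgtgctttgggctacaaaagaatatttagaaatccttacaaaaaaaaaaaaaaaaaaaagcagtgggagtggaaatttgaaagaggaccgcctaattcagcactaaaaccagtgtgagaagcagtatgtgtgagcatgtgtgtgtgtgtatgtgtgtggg
THBS1, chr15:39580829-39581128, plus strand: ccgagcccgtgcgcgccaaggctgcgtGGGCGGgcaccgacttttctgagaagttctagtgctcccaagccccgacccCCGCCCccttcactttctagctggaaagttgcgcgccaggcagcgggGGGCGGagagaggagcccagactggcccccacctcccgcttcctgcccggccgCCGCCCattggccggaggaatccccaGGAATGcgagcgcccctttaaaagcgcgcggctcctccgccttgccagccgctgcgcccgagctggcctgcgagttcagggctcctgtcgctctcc
THBS2, chr6:169253797-169254096, minus strand: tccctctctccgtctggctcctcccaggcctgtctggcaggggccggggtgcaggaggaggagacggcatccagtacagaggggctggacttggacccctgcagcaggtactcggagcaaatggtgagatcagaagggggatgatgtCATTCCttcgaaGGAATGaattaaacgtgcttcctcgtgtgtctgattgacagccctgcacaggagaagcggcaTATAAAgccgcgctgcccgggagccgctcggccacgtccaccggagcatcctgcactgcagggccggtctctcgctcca

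The FN1 window was 76.7% G and C and held 6 matches to the GC box, some of which overlap each other. The VIT window was 33.7% G and C and held no match to any of the 7 motifs. The median over 34943 promoter windows of the same length was 58.7%. THBS1 held 4 GC boxes and 1 TEAD core, and THBS2 held 2 TEAD cores and a TATAAA box whose first base lies 29 bases before the start. The GC box occurred in 44.9% of all windows, the TEAD core in 14.0% and TATAAA in 11.6%. Among the 10 genes the TEAD core was also found in SPARC and FBN1, with 1 match each. For FBN1 and FBN2 the bases checked after the start were not found in a GENCODE 29 transcript of the gene, so those starts are uncertain. CAGAAT was found only in POSTN, with 1 match, and CAGAAC in no gene, while 14.1% and 14.9% of all windows held them. POSTN also held 2 TATAAA matches and 1 AP-1 match, and SPARC held 1 CAGATG. The AP-1 site occurred in 7.72% of all windows and CAGATG in 14.7%. These matches describe letters in a window and are not binding sites.

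The libraries held 21466327 and 24487126 counts in the controls and 24428774 and 23217521 in the knockdown samples. Counts were scaled with TMM factors to counts per 1000000 (CPM). ZNF217 was at 66.2 and 73.4 CPM in control and 37.6 and 31.9 CPM in knockdown, so the mean was 2.01-fold lower (edgeR quasi-likelihood test, adjusted p = 0.207; DESeq2, adjusted p = 0.0115). Spread was wider between the controls: the biological coefficient of variation was 0.39 within the controls and 0.0782 within the knockdown pair. Osteosarcoma markers were mixed. VIM was the most abundant, at 3660 and 4266 CPM in the controls and 2729 and 2566 CPM after knockdown. RUNX2 was at 11.2 to 17.4 CPM and MDM2 at 30.4 to 46.3 CPM, while the osteoblast genes SP7 and ALPL were at 0.139 CPM or less. Of the 6 osteosarcoma markers tested, VIM lay below both controls and the other 5 overlapped. The summed level of 7 endothelial markers reached at most 1.07 CPM. The 12 blood cell markers summed to 63.9 to 89.1 CPM, lower in both knockdown libraries. CD68 made up 83.7% of that sum and set its direction. Of the 5 markers tested, 2 lay below both controls, 2 above both and 1 overlapped. ITGAM, among those above, had enough counts for testing only in its knockdown libraries, at 0.625 and 0.417 CPM against 0.139 and 0 CPM in the controls. CSF1R, among those below, had enough only in its controls, at 1.02 and 1.56 CPM against 0.390 and 0.334 CPM after knockdown. Their places in these counts rest in part on that filter. LCP1 was higher, at 2.17 and 2.63 CPM in the controls against 6.95 and 5.75 CPM after knockdown. ITGAX was at 4.53 to 8.75 CPM, while PTPRC reached 0.0925 CPM and MS4A1 was at 0. The 8 fibroblast and pericyte markers summed to 31.2 and 65.7 CPM in the controls and 58.1 and 49.8 CPM after knockdown. Of that sum PDGFRA made up 82.9% and ACTA2 was at 1.34 to 8.98 CPM, while DCN reached 0.0462 CPM and LUM was at 0. The part of such cells in the results was not tested. Of 10 epithelial markers, KRT8 and KRT18 were abundant, with KRT18 at 936 to 1224 CPM, while EPCAM reached 0.937 CPM and CDH1 0.0417 CPM. In bulk RNA, fewer cells with a transcript and less transcript per cell cannot be told apart.

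Of the 10 genes, 9 had enough counts to be tested, and POSTN did not. VIT, with 26 and 5 counts in the controls, passed the count filter only through its knockdown libraries. Counting VIT as tested and as above both controls therefore rests in part on that filter. DESeq2 was fitted to all genes without that filter, so its call of VIT does not rest on it. Both knockdown libraries lay below both controls for 4 of the 9 (FN1, TNC, FBN2 and VCAN) and above both for 3 (THBS1, SPARC and VIT), while THBS2 and FBN1 overlapped. Among the 12965 genes tested, 22.9% lay below both controls and 25.4% above, 48.3% in all. The median log2 fold change of the 9 genes was −0.58, and that of all tested genes was −0.01. edgeR called 0 of the 9 at an adjusted p under 0.05, as it called 0% of all tested genes, and at an unadjusted p under 0.05 it had 3 lower and 1 higher, where 6.42% of all tested genes were lower, 6.61% higher and 13% either. DESeq2 called FN1 and FBN2 lower and VIT higher, 3 of the 9, against 2.04% lower, 1.76% higher and 3.8% in all of the 13062 genes to which it gave an adjusted p. With 2 libraries a group, an exact two-sided permutation test of a single gene cannot give a p below 0.333.

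**Figure D1:**
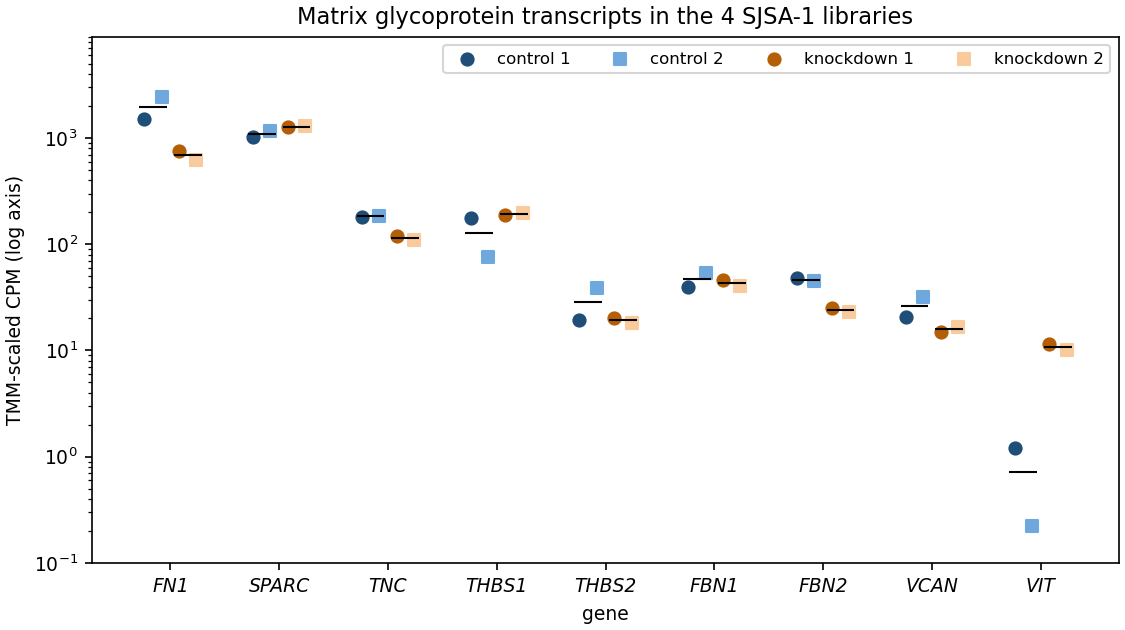
TMM-scaled CPM (log axis) of the 9 tested genes in each of the 4 libraries, with short black lines at the group means (n = 2 each). The knockdown points lie below both controls for FN1, TNC, FBN2 and VCAN, and the control points of THBS1, THBS2 and VIT lie far apart.

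FN1 (ENSG00000115414, chromosome 2, 215360440 to 215436172, minus strand of GRCh38) encodes fibronectin, the adhesive protein that binds integrins and collagen. The controls held 1500 and 2415 CPM, and the knockdown libraries 758 and 627 CPM. The groups did not overlap, and the lower control was still well above the higher knockdown library. The means were 1957 ± 647 and 693 ± 92.6 CPM (SD, n = 2 each), with a log2 fold change of −1.498 (standard error 0.28, 95% interval −2.20 to −0.79). edgeR gave an adjusted p of 0.19 and DESeq2 of 0.000415. FN1 alone took 0.151% and 0.221% of all counts in the controls and 0.0795% and 0.0648% in the knockdown libraries. Ranked by TPM, a level per gene length, it was number 498 and 343 of all 20024 genes in the controls, and number 998 and 1256 in the knockdown libraries. Without control replicate 2, its higher library, the log2 fold change was −1.12, and without control replicate 1 it was −1.81.

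TNC (chromosome 9, 115019578 to 115118257, minus strand) encodes tenascin-C, a six-armed matricellular protein that binds fibronectin and loosens cell adhesion to it. Its controls were close to each other, at 181 and 186 CPM, with 120 and 111 CPM after knockdown. The gap between the groups was therefore far wider than the spread within either. On the log2 scale the fold change was −0.67 (standard error 0.17, 95% interval −1.10 to −0.25), with an adjusted p of 0.252 in edgeR and 0.111 in DESeq2. It was −0.70 when control replicate 1 was left out and −0.66 without control replicate 2. The TPM ratio of FN1 to TNC was 4.63 and 7.26 in the controls, and 3.54 and 3.18 in the knockdown libraries, so FN1 was lower relative to TNC as well.

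The fibrillins differed from each other. FBN2 (chromosome 5, 128257909 to 128659185, minus strand), the fibrillin best known from developing tissue, was at 48.0 and 44.7 CPM in the controls, against 25.0 and 22.9 CPM after knockdown. The libraries of each group lay within a few CPM of each other, and the group means differed 1.94-fold. FBN2 had a log2 fold change of −0.95 (standard error 0.19, 95% interval −1.45 to −0.46) and an adjusted p of 0.218 in edgeR and 0.0208 in DESeq2. Leaving out control replicate 1 or control replicate 2 gave −0.91 and −1.01. FBN1 (chromosome 15, 48408306 to 48645849, minus strand), the fibrillin mutated in Marfan syndrome, was at 39.6 and 53.6 CPM in the controls, against 46.0 and 40.4 CPM after knockdown. Both knockdown values lay between the controls, and the log2 fold change was −0.11 (95% interval −0.70 to 0.48; edgeR adjusted p = 0.869). The sign for FBN1 turned to 0.02 when libraries were scaled by total counts and to 0.12 without control replicate 2.

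VCAN (chromosome 5, 83471465 to 83582303, plus strand) encodes versican, a large chondroitin sulphate proteoglycan that binds hyaluronan and also associates with fibrillin microfibrils. It was at 20.9 and 31.7 CPM in the controls, while the knockdown libraries were at 15.0 and 16.7 CPM. The groups did not overlap, but the distance between the controls exceeded that between control replicate 1 and the nearest knockdown library. Its log2 fold change was −0.73 (standard error 0.28, 95% interval −1.45 to 0.00), and the adjusted p was 0.383 in edgeR and 0.313 in DESeq2. Against control replicate 1 alone it was −0.40, and against control replicate 2 alone −1.01.

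The thrombospondins bind calcium, CD36 and CD47, and thrombospondin-1 can activate latent TGF-beta and restrain the growth of blood vessels. THBS1 (chromosome 15, 39581079 to 39599466, plus strand) was at 178 and 76.1 CPM in the controls, against 188 and 198 CPM after knockdown. The knockdown libraries lay only just above control replicate 1, and control replicate 2 stood apart at a level 2.34-fold lower than control replicate 1. For THBS1 the log2 fold change was 0.60 (standard error 0.41, 95% interval −0.45 to 1.65; edgeR adjusted p = 0.573), or 0.11 against control replicate 1 alone and 1.33 against control replicate 2 alone.

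THBS2 (chromosome 6, 169215780 to 169254044, minus strand) had its outlying value in the same library but in the opposite direction. It was at 19.3 and 38.5 CPM in the controls, against 20.3 and 18.2 CPM after knockdown, so control replicate 2 was 1.99-fold above control replicate 1 while the knockdown libraries lay on either side of control replicate 1. For THBS2 the log2 fold change was −0.58 (standard error 0.37, 95% interval −1.53 to 0.36; edgeR adjusted p = 0.554). Against control replicate 1 alone it was −0.01, and against control replicate 2 alone −1.01.

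SPARC (chromosome 5, 151661096 to 151687165, minus strand), a collagen-binding matricellular protein, varied little. It was at 1024 and 1156 CPM in the controls, against 1261 and 1296 CPM after knockdown. The knockdown libraries were the higher pair, by 1.17-fold on the means. Its log2 fold change was 0.23 (95% interval −0.16 to 0.62; adjusted p = 0.569 by edgeR and 0.826 by DESeq2).

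VIT (chromosome 2, 36696690 to 36814792, plus strand) encodes vitrin, a matrix protein with von Willebrand factor type A domains. It had 26 and 5 counts in the controls and 292 and 244 in the knockdown libraries, that is 1.202 and 0.223 CPM against 11.4 and 10.2 CPM. Both knockdown libraries were far above both controls, and the controls themselves differed 5.39-fold at these low counts. VIT had a log2 fold change of 3.92 (standard error 0.76, 95% interval 1.99 to 5.84) and an adjusted p of 0.202 in edgeR and 1.32e-06 in DESeq2. Against control replicate 1 alone it was 3.15 and against control replicate 2 alone 5.55, so its size depends on which control is used.

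POSTN (chromosome 13, 37562583 to 37598844, minus strand), periostin, a matricellular protein of periosteum and ligament, was not detectable at this depth beyond single reads. It had 0 and 0 counts in the controls and 1 and 1 in the knockdown libraries. A count of 0 allows up to 3 counts, which is 0.139 and 0.134 CPM in these controls, for counting error only. No fold change is given for it.

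**Figure D2:**
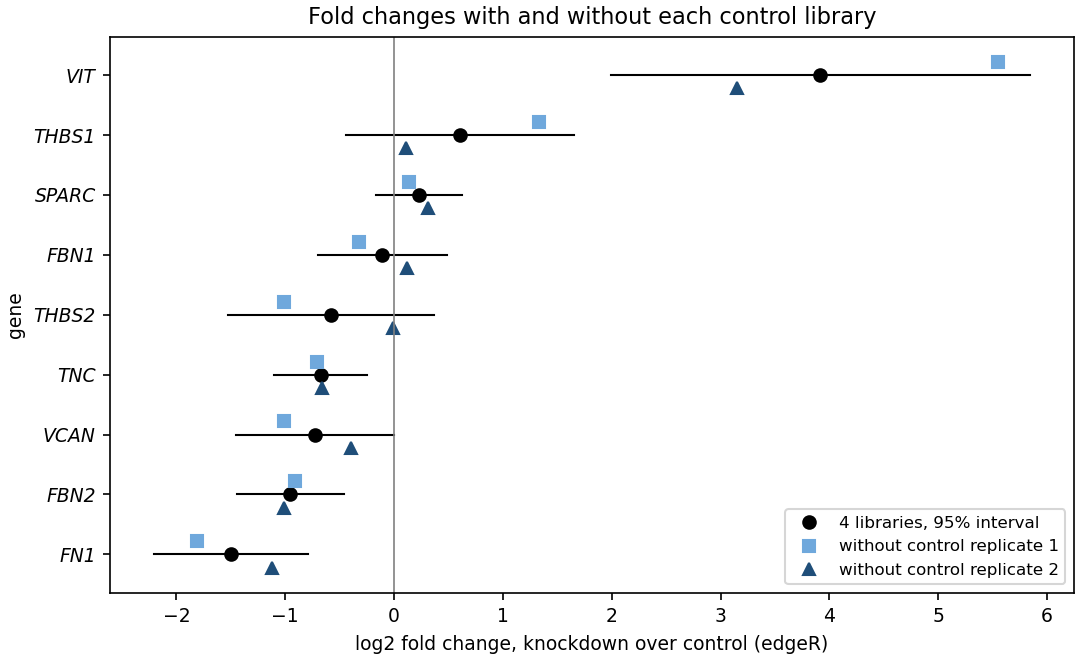
edgeR log2 fold change, knockdown over control, of the 9 tested genes (black points, with 95% intervals as lines), and the same value without control replicate 1 (squares) or control replicate 2 (triangles). FBN2 and TNC keep nearly the same value, while THBS1 and THBS2 move to 0.11 and −0.01 without control replicate 2.

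Levels were compared between genes as TPM, which corrects for gene length. SPARC was the most abundant in every library, at 718 ± 35.8 TPM in control and 893 ± 10.01 TPM in knockdown (SD, n = 2 each), followed by FN1 at 342 ± 68.4 and 131 ± 21.4 TPM. By control means TNC came next at 58.6 ± 6.86 TPM and THBS1 at 44.3 ± 29.9 TPM, a pair that overlapped. Their order differed between the controls. THBS1 and TNC were at 65.5 and 63.5 TPM in control replicate 1, and at 23.1 and 53.8 TPM in control replicate 2. The knockdown libraries had the order of control replicate 1, with THBS1 at 68.4 ± 0.637 TPM and TNC at 38.8 ± 3.39 TPM, without overlap. The remaining control levels were 13.4 ± 4.64 TPM for THBS2, 10.8 ± 2.01 for FBN2, 8.80 ± 0.698 for FBN1, 5.40 ± 0.861 for VCAN and 0.63 ± 0.654 for VIT. In the knockdown libraries THBS2 at 9.77 ± 1.05 TPM, VIT at 9.44 ± 1.04 and FBN1 at 8.75 ± 1.06 overlapped each other. FBN2 at 5.88 ± 0.54 TPM and VCAN at 3.51 ± 0.158 lay below them. VIT was thus the lowest of the tested genes in the controls and level with FBN1 and THBS2 in the knockdown libraries.

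Ratios of transcripts within a library do not depend on how libraries are scaled. Beside FN1 to TNC above, 3 pairs were compared that way, all of them chosen after their values were seen. The TPM ratio of SPARC to FN1 was 2.53 and 1.78 in the controls and 6.17 and 7.66 in the knockdown libraries. That these ratios do not overlap follows from FN1 lying below both controls and SPARC above both, so it is no separate result. The TPM ratio of FBN1 to FBN2 was 0.678 and 0.988 in the controls and 1.52 and 1.45 in the knockdown libraries, so that FBN1 was the more abundant fibrillin transcript in both knockdown libraries, while FBN2 was so in control replicate 1 and the fibrillins were level in control replicate 2. The TPM ratio of THBS1 to THBS2 was 6.46 and 1.39 in the controls and 6.46 and 7.62 in the knockdown libraries. Here control replicate 2 alone was low, and control replicate 1 matched the knockdown libraries.

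**Figure D3:**
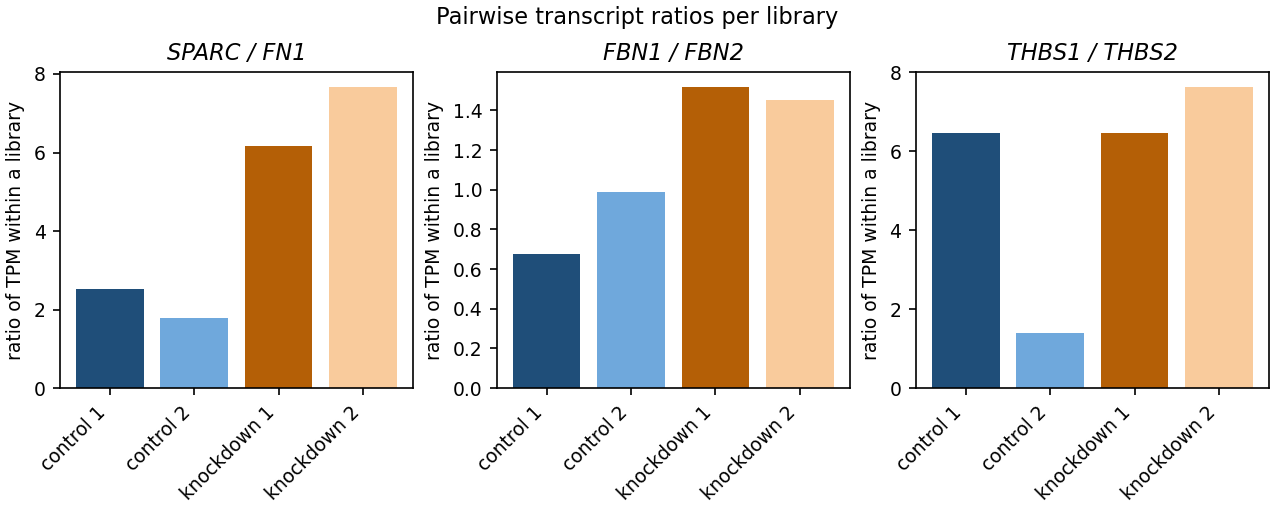
Ratio of TPM within each library for SPARC to FN1, FBN1 to FBN2 and THBS1 to THBS2, as bars from 0, 1 bar per library. SPARC to FN1 and FBN1 to FBN2 are higher in each knockdown library than in either control, and the last is low, at 1.39, in control replicate 2.

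Genes that surround these glycoproteins were examined in 5 lists of 115 symbols in all, whose counts stand beside the 22.9% of all tested genes that lay below both controls and the 25.4% that lay above. Of other structural glycoproteins, 21 of 33 were tested, with 7 below both controls, 6 above both and 8 overlapping, and a median log2 fold change of −0.32. edgeR called 0 of them and DESeq2 called 3, all lower. Over all 13062 genes to which it gave an adjusted p, DESeq2 called 2.04% lower and 1.76% higher, which also stands beside its calls in the lists below. At an unadjusted edgeR p under 0.05, 5 structural genes were lower and 3 higher (HMCN1, EMILIN2 and EGFLAM). HMCN1 passed the count filter only with its knockdown libraries, and NPNT and MATN3, among the lower, only with their controls. Their places in these counts rest in part on that filter. MFAP2, a microfibril glycoprotein that associates with fibrillin, was at 79.0 and 92.5 CPM in the controls, against 41.2 and 41.5 CPM after knockdown (edgeR adjusted p = 0.177; DESeq2 adjusted p = 0.00504). Like FBN2 it had a narrow spread in both groups. MATN3, a matrilin of cartilage, and MMRN2, an endothelial matrix glycoprotein, were low, at 2.19 ± 0.748 and 3.79 ± 0.386 CPM in control and 0.361 ± 0.0972 and 1.07 ± 0.0928 CPM in knockdown. LTBP1, which tethers latent TGF-beta to fibronectin and fibrillin, was at 32.4 ± 5.99 and 33.4 ± 3.63 CPM. FBN3, the third fibrillin, had 0 counts in 3 libraries and 3 in the other.

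Of other matricellular genes, 11 of 22 were tested, with 5 below both controls and 1 above both, and a median of −0.51. THBS4, among those below, passed the count filter only with its controls. Of the matricellular genes edgeR called 0 and DESeq2 called 2, both lower. CCN1, an integrin-binding matricellular protein, was at 250 and 373 CPM in the controls, against 114 and 122 CPM after knockdown (edgeR adjusted p = 0.177; DESeq2 adjusted p = 0.000427). Its relative CCN2 was at 610 and 171 CPM against 120 and 123 CPM, with control replicate 1 far above the other libraries. FSTL1, a secreted relative of SPARC, was at 483 ± 98.5 and 301 ± 7.52 CPM (edgeR adjusted p = 0.296).

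Of the proteoglycan and hyaluronan genes only 4 of 17 were tested, with 2 below and 1 above both controls. BGN, the small leucine-rich proteoglycan biglycan, was at 65.6 and 43.0 CPM in the controls, against 18.9 and 19.8 CPM after knockdown (edgeR adjusted p = 0.188; DESeq2 adjusted p = 0.00066), and it was the single gene of this list that DESeq2 called. HAS2, the main synthase of the hyaluronan that versican binds, was at 23.2 and 16.8 CPM in the controls, against 46.1 and 35.9 CPM after knockdown, the opposite direction from VCAN (edgeR adjusted p = 0.265). HAS3, another synthase, was at 5.88 ± 4.06 and 2.62 ± 0.607 CPM. HAPLN1, a link protein of versican and hyaluronan, had at most 2 counts in any library.

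Of the receptors 14 of 20 were tested, with 6 below both controls, 2 above both and a median of −0.41, and neither edgeR nor DESeq2 called any. At an unadjusted edgeR p under 0.05, 4 receptors were lower and 0 higher, where 6.42% of all tested genes were lower and 6.61% higher. By that measure 4 matricellular genes were lower and 0 higher. The proteoglycan and hyaluronan genes had 1 lower and 1 higher, and the processing genes 4 lower and 1 higher. Among those 4, ADAMTS10 passed the count filter only through its controls. ITGA5, the integrin subunit specific to fibronectin, was at 283 and 494 CPM in the controls, against 227 and 220 CPM after knockdown. Its partner ITGB1 overlapped between the groups, at 264 ± 89.8 and 201 ± 25.4 CPM, as did ITGAV at 91.2 ± 32.0 and 68.4 ± 12.3 CPM and SDC4 at 203 ± 110 and 148 ± 12.2 CPM. The syndecan SDC1 was at 150 ± 44.6 and 79.4 ± 0.341 CPM, and the hyaluronan receptor CD44 at 833 ± 78.7 and 602 ± 26.03 CPM. CD47, the thrombospondin receptor, was above both controls, at 96.7 ± 17.0 and 118 ± 4.48 CPM (edgeR adjusted p = 0.577).

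Of the processing and cleavage genes 16 of 23 were tested, with 6 below both controls, 3 above both and a median of −0.34; edgeR called 0 and DESeq2 called 1. That gene was ADAMTS6, a secreted metalloproteinase, at 27.4 and 17.3 CPM in the controls, against 8.35 and 8.51 CPM after knockdown (edgeR adjusted p = 0.234; DESeq2 adjusted p = 0.00822). The versican-cleaving proteases ADAMTS15 and ADAMTS1 differed in direction, and others of the kind are not described here. ADAMTS15 was at 6.01 and 18.0 CPM against 3.47 and 3.71 CPM, and ADAMTS1 at 7.03 and 7.23 CPM against 12.4 and 12.2 CPM (edgeR adjusted p = 0.334 for each). Of the processing genes below both controls, ADAMTS10 passed the count filter only through its controls. Of those above both, ADAMTS17 passed it only through its knockdown libraries.

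**Figure D4:**
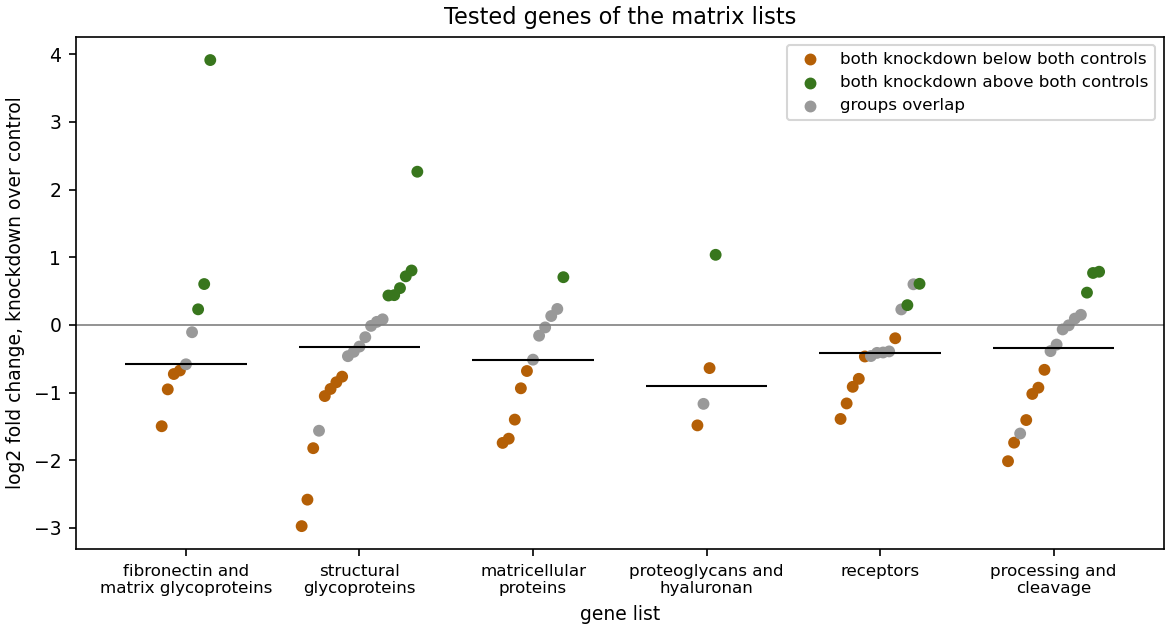
edgeR log2 fold change, knockdown over control, of each tested gene in the 6 lists, coloured by whether both knockdown libraries lay below or above both controls, with black lines at the medians. The medians lie between −0.32 and −0.90, and every list holds genes on both sides of 0.

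Counts against a single control show how far these numbers rest on either control. Against control replicate 1 alone, the knockdown libraries lay below it for 4 of the 9 glycoprotein genes and above it for 4, where 42.4% and 43.4% of all tested genes did so. Against control replicate 2 alone they lay below it for 6 and above it for 3, where 43.6% and 46.8% of all tested genes did so. The list counts moved as well. Against control replicate 1 alone, 9 of the 21 structural glycoprotein genes were below and 11 above, and against control replicate 2 alone 12 and 8. Of the 11 matricellular genes, 6 were below and 4 above control replicate 1, and 9 and 2 against control replicate 2. The 4 proteoglycan and hyaluronan genes split into 2 and 1, and 3 and 1, in the same order. Of the 14 receptors, 8 were below and 4 above control replicate 1, and 8 and 3 against control replicate 2. For the 16 processing genes the counts were 9 and 5, and 10 and 6.

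Some genes share exon sequence with a gene on the opposite strand, and the strand setting of the counting is not known. THBS1 shares 448 bases with FSIP1 and 411 with an antisense RNA, SPARC shares 381 with the antisense RNA CLMAT3, VCAN shares 453 with VCAN-AS1, TNC shares 129 with DEC1 and FBN2 shares 56 with SLC27A6. Of the partners in the count table, FSIP1 had at most 95 counts in a library, SLC27A6 42 and DEC1 1. FN1, THBS2, POSTN, FBN1 and VIT share no exon base with another gene in GENCODE release 29.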

How the data were processed

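The authors deposited raw counts per gene for each library. The submitters' processing notes name GRCh38 and, without versions, DESeq2, HISAT2, Subread and Trimmomatic. A signal that the authors named TPM equals 10 times the TPM computed here from counts and deposited gene length. The authors' table further holds, per the file headers, DESeq2 log2 fold changes with p-values and a mean count signal, used for no test.

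Tests used edgeR 4.0.16 (R 4.3.3; quasi-likelihood, TMM scaling, counts of at least 10 by its filter with a total of at least 15), leaving 12965 of 20024 genes, with two-sided p-values adjusted by Benjamini-Hochberg over all of them and a threshold of 0.05. Standard errors are the log2 fold change divided by the square root of F. DESeq2 1.42.0 and limma 3.58.1 were alternatives, with other scalings, filters, a replicate block and each library left out. The edgeR and DESeq2 steps were tested on simulated data. The members and lists were chosen with earlier results of these data known. Named beside the 10 members were the 3 genes with the smallest p in each list, and 13 partners fixed by name. The deposited columns of the knockdown libraries were matched to their labels by KD and number. Positions came from GENCODE 29 on GRCh38. Deposited gene lengths equal its exon lengths for 57.1% of 19981 genes, so the authors' annotation is another one. Figures were drawn with matplotlib 3.10.9.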

Additional observations from a re-analysis of the deposited data

How the results depend on the processing

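No member was called by edgeR with TMM or DESeq2 scaling, total counts, no or a stricter filter, or a threshold of 0.01, nor by limma. Over all genes, 0 were called higher and 0 lower, against 16 and 3 without a filter and 230 and 267 by DESeq2, which called 1 member higher and 2 lower. With the replicate block, 160 and 124 genes were called, with 1 member higher (VIT, adjusted p = 0.00116) and 1 lower (FN1, 0.00255). The labels do not say that a number marks a shared culture, and the deviations of same-numbered libraries correlated at −0.0196. With each library left out, higher calls ranged from 11 to 3679 and lower calls from 3 to 3672, members called higher from 0 to 2 and lower from 0 to 6. Without control replicate 1 the called members were THBS1 and VIT higher and FN1, TNC, THBS2, FBN1, FBN2 and VCAN lower; without control replicate 2 they were SPARC and VIT higher and FN1, TNC and FBN2 lower. Without a control, the lone control is assumed to vary like the knockdown pair. Of members, 3 to 4 lay above the controls that remained and 4 to 6 below. The stricter filter removed VIT, leaving 2 members above both controls, and without a filter POSTN, at 1 read in each knockdown library, made 4. Of the 9 members, FBN1 alone changed sign, to 0.0173 with total counts, and it ranged from −0.32 to 0.12 as each library was left out. LTBP1, at 0.05 with all libraries, then ranged from −0.14 to 0.24, and SDC4, at −0.46, from −0.94 to 0.23. The cause was not tested. Depth limits POSTN and, in the controls, VIT.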

Other observations

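The authors' deposited table gives fold changes that differ from those of the 4 count columns for several of these genes. The direction of its log2 fold changes is not stated. Of the members, the authors' deposited table has an adjusted p under 0.05 for VIT, at −4.42 (adjusted p = 0.00159), and THBS2, at −1.36 (adjusted p = 0.0118). It gives ZNF217 as 0.56 with a standard error of 0.37 (adjusted p = 0.622). Read as control over knockdown, the signs of VIT, THBS1 (−1.05), SPARC (−0.45), VCAN (0.20) and ZNF217 in the authors' deposited table match the counts. The signs of THBS2, FBN2 (−0.80), TNC (−0.29), FN1 (−0.13) and FBN1 (−0.16) in the authors' deposited table then do not, and read the other way these sets change places. For FN1 the authors' deposited table has a standard error of 0.36 and an adjusted p of 0.962, while both knockdown libraries lay below both controls in the counts. The mean normalized count of THBS2 in the authors' deposited table is 6003, while its 4 libraries, scaled by DESeq2 size factors, range from 424 to 903. That of FN1 is 12120, below the lowest of its 4 libraries at 14609. Over the 12965 tested genes, the mean in the authors' deposited table lay outside the range of the 4 libraries for 8084 genes, or 62.4%. The sources used here do not say which libraries entered that table.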
